A study of Homo sapiens with 12 samples.

Results

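The ATF4 amino acid response genes are 41 protein-coding genes that were followed here in HCT116 cells, a human colorectal cancer cell line with intact p53. The members were taken from a list of names, as ATF4 itself, its partner factors and the genes for amino acid synthesis, amino acid uptake, one-carbon units and tRNA charging that are usually placed under ATF4. All 41 symbols stood among the 60580 genes of the count files, and 40 of them, among 16123 genes in all, had at least 20 counts in at least 1 library and entered the tests. The exception was VLDLR, a lipoprotein receptor, with 0 to 2 counts per library. By role the list holds 6 regulators, 5 stress effectors, 8 genes of amino acid synthesis, 4 genes of one-carbon units and phosphoenolpyruvate, 5 transporter genes and 13 genes of tRNA charging and export.

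RNA was sequenced from WT cells and from miR-34a/b/c-KO cells (KO below), each given either the vehicle DMSO or the thymidylate synthase inhibitor 5-FU over 48 hours, with 3 replicates named per group. In the KO cells the regions that encode the mature microRNAs of both miR-34 loci had been removed with CRISPR-Cas9, and the WT cells had received the Cas9 plasmid without a guide, so that both genotypes are single-cell derived HCT116 clones. Whether the replicates of a group were different clones is not given in the sources used here, and p-values measure the spread between these libraries only. A difference between the genotypes can therefore not be told apart from a difference between clones. The comparisons ask how the ATF4 genes responded to 5-FU in each genotype, how the genotypes differed with and without the drug, and whether the responses themselves differed.

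ATF4 is a basic leucine zipper transcription factor whose translation rises when the initiation factor eIF2 is phosphorylated by one of the stress kinases GCN2, PERK, PKR or HRI. It binds composite C/EBP-ATF elements and drives genes that restore amino acid supply, together with DDIT3 (CHOP), ATF3 and CEBPB as dimer partners and TRIB3 as a feedback inhibitor. Because ATF4 is controlled largely at translation, its mRNA level is not a measure of its protein, which was not measured in these libraries.

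To show what the members share in sequence, the core of the C/EBP-ATF element, TGATGNAAN, was searched on both strands of the RefSeq promoter windows of assembly GRCh38.p14, from 250 bases before to 50 after each start site. Of the 41 members, 33 had a window, and 11 of these held the core (33.3%), against 1.69% of the 11177 promoters of tested genes and 3.67% of all 27305 promoters. Windows were not matched for NUPR1, PSPH, PYCR1, SHMT2, ALDH1L2, SLC7A11, YARS1 and LARS1. The lines give 7 of the 11 matches in the direction of the motif, with the motif in capitals, for members that the results below turn on.
CHAC1, chr15:40953251-40953279, minus strand: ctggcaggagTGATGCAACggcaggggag
ASNS, chr7:97872458-97872486, minus strand: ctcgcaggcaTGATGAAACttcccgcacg
ATF3, chr1:212565206-212565234, plus strand: aaggtcaggaTGATGGAAGgctgtcatat
SLC3A2, chr11:62881725-62881748, minus strand: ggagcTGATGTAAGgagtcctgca
CARS1, chr11:3057408-3057436, plus strand: tcctagaatcTGATGCAACcgccgccccg
MARS1, chr12:57488053-57488081, minus strand: aatccctcgcTGATGCAACcggaaccggc
IARS1, chr9:92293693-92293721, plus strand: cgcacggaggTGATGCAACgcgctgaaaa
The letters TGATGCAAC recurred in 4 of these 7 windows. The remaining 4 matches lay in the windows of AARS1, NARS1, SLC7A1 and TARS1. A match is a description of these letters and not a measured binding site.

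Of the deleted microRNAs, miR-34a-5p and miR-34b-5p are shown with the seed, bases 2 to 8, in capitals, since the seed decides which transcripts they can pair with, and miR-34c-5p is not shown here.
hsa-miR-34a-5p: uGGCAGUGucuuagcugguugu
hsa-miR-34b-5p: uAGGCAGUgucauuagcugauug
The 2 mature sequences, from RefSeq, carry seeds shifted by 1 base. The match to the miR-34a seed, CACTGCC, was looked for in the longest annotated 3′ UTR of each gene (GENCODE 44) and occurred in 3 of the 40 tested members (7.5%), SHMT2, ALDH1L2 and SLC7A1, against 18.9% of 13084 tested genes. The SHMT2 site starts at position 64 and the SLC7A1 site at position 3311 of the UTR, and both are shown with the seed match in capitals.
SHMT2: cagctgatctCACTGCCttccctagag
SLC7A1: ggccctgacgCACTGCCtcctgcacct
None of these 3 genes was called higher in the KO cells, where 9.1% of all tested genes were in DMSO and 7.58% under 5-FU. Their levels are given below. The match to the miR-34b seed was not searched for, and an effect of the deletion on these genes was not tested.

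Library totals ran from 22831415 to 39064210 counts, with a median of 25698417. The file labelled WT 5-FU replicate 1 equalled WT DMSO replicate 3 in every one of the 60580 genes and was left out, which leaves 2 WT 5-FU libraries and 11 in all. The p53 target CDKN1A rose under 5-FU from 167 ± 1.18 to 2076 ± 143 CPM (counts per 1000000 of the scaled library, mean ± SD, n = 3 and 2) in WT cells and from 469 ± 17.5 to 2478 ± 51.8 (n = 3 and 3) in KO cells, and MDM2 from 140.5 ± 5.95 to 1118 ± 160.1 and from 192 ± 3.97 to 811 ± 15.6. The miR-34 hairpins were listed at 0 counts in all 11 libraries, so these counts do not check the deletion, and the host transcript MIR34AHG was higher in KO than in WT cells without the drug (log2 fold change 2.19, SE 0.084, FDR 9.42e-12). Of 12 colon epithelial markers, 10 reached 20 counts. Summed marker levels are given per 1000000 counts of the unscaled library, unlike the other CPM. The 12 summed to 5673 to 5803 CPM in WT DMSO and 5923 to 6035 in KO DMSO libraries. Under 5-FU they summed to 11730 to 12770 in WT and 9592 to 10100 in KO libraries. Of the markers of other cell types, 2 of 9 fibroblast, 4 of 8 immune and 1 of 4 endothelial genes reached 20 counts, PTPRC, CD3E, DCN and LUM had at most 3 counts in any library, and the 3 lists summed to at most 75.4, 44.2 and 6.53 CPM.

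Summed over the members, the ATF4 genes took 0.578 to 0.590% of all counts in WT DMSO libraries and 0.717 to 0.749% in WT 5-FU libraries. In KO cells the share was 0.546 to 0.565% in DMSO and 0.522 to 0.530% under 5-FU. The 4 groups did not overlap, and the ends of the range were held by the 2 WT 5-FU and the 3 KO 5-FU libraries. Of 40 members, 28 had their highest group mean in WT 5-FU cells and 22 had their lowest in KO 5-FU cells, beside 27.2% and 30.9% of all tested genes. Both WT 5-FU libraries stood above all other 9 libraries for 22 members, and all 3 KO 5-FU libraries stood below all other 8 for 21 members, beside 13.8% and 16% of all tested genes. In bulk RNA, fewer cells with a transcript and less of it per cell cannot be told apart.

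Per kilobase of exon, the most abundant members in WT DMSO cells were PYCR1 at 124 CPM per kilobase, ATF4 at 113, DDIT4 at 98.9 and SLC7A5 at 97.1. The least abundant were ALDH1L2 at 0.228, NUPR1 at 0.026 and CBS at 0.016, apart from VLDLR at 0.

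In WT cells 5-FU raised most of the list. Of 40 members, 14 were called higher (FDR under 0.05 and more than 1.5-fold, edgeR's quasi-likelihood test, Benjamini-Hochberg adjusted across every tested gene) and 1 was called lower, against 18.5% and 9.38% of all tested genes. Without the fold limit 29 were higher and 5 lower, beside 31.9% and 28.3% of all genes, and the 5-FU and DMSO libraries did not overlap for 29 members that were higher and 4 that were lower, beside 36.5% and 32.3%. The median log2 fold change was 0.41 for the members and 0.034 for all tested genes. The largest rises were those of CBS, NUPR1, CHAC1, ATF3, SESN2 and SLC6A9, and the 1 called fall was that of LARS1. Without WT 5-FU replicate 3 the rise of ASNS dropped to a log2 fold change of 0.56 and that of STC2 to 0.57, and without WT 5-FU replicate 2 SLC7A5 was at 0.47 and LARS1 at -0.48, all inside the 1.5-fold limit. SLC7A5 was also inside it without WT DMSO replicate 2 (0.58) and STC2 without WT DMSO replicate 3 (0.57).

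In KO cells the same drug split the list. Of the 40 members, 5 were called higher and 5 lower, against 13.3% and 12% of all tested genes, so the called share was near that of the background. Without the fold limit 12 were higher and 22 lower, against 26.6% and 33.8%, and the libraries did not overlap for 12 members that were higher and 24 that were lower, against 30.4% and 38.4%. The members' median log2 fold change was -0.19 and that of all tested genes -0.059. The 5 called higher were CBS, NUPR1, ATF3, SESN2 and CHAC1, and the 5 called lower were SLC7A11, CTH, PYCR1, PCK2 and PHGDH. With scaling by total counts 8 members were called higher and 4 lower, and with TMM or DESeq2 scaling 8 higher and 5 lower. Over all genes upper-quartile scaling called 2137 genes higher and 1932 lower, and scaling by total counts 2508 and 1453. When 1 factor of unwanted variation (RUVg) was removed, no member passed in either genotype. Over all tested genes the calls were then 3 higher and 0 lower in WT cells and 1 and 0 in KO cells. The lack of calls is therefore not particular to the members, and 12 members in WT and 15 in KO cells had an unadjusted p under 0.05. The controls for that factor were the 11123 genes left after the 5000 with the strongest group differences were set aside. By edgeR 63.9% of all tested genes had an unadjusted p under 0.05 for the drug in each genotype, so many controls responded to it. Of the variance of that factor, 98.2% lay between the DMSO and 5-FU libraries. This setting therefore removes the drug response itself and cannot decide whether members responded.

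Set side by side, 12 members rose in WT and fell in KO cells at an FDR under 0.05, which is 30% of the tested members, while 1.45% of all tested genes had that pattern. They were ATF4, STC2, ASNS, PHGDH, PCK2, SLC7A5, SLC3A2 and the synthetase genes AARS1, GARS1, MARS1, TARS1 and YARS1. A further 11 rose in both genotypes, beside 19.9% of all genes, and 6 rose in WT cells without passing in KO cells, beside 10.6%. The opposite pattern, lower in WT and higher in KO cells, occurred in 0 members and in 1.3% of all genes.

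**Figure D1:**
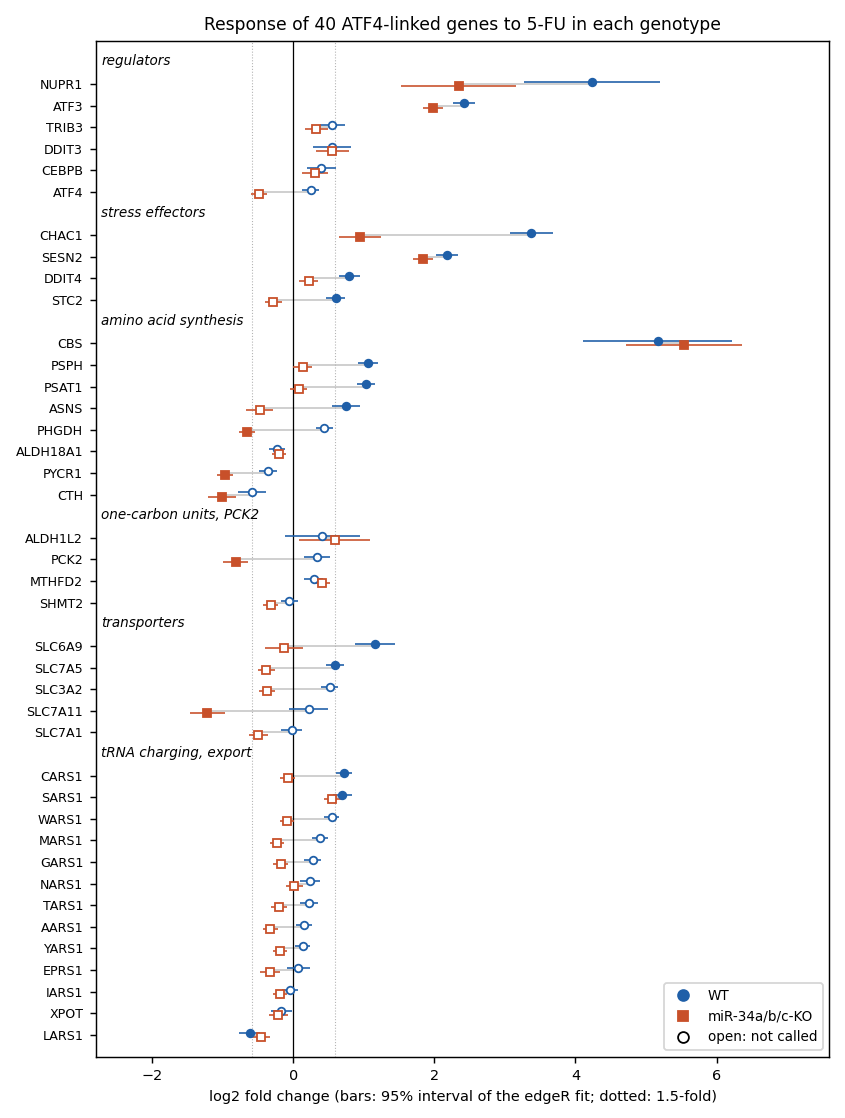
Log2 fold change of 5-FU against DMSO (x axis) for the 40 tested members (y axis), grouped by role, in WT cells (blue circles) and KO cells (orange squares), with the 95% interval of the fit as bars, filled symbols for called changes and dotted lines at 1.5-fold. Transporters lie to the right of 0 in WT cells for 4 of 5 genes and to the left in KO cells for 5 of 5, while ATF3, SESN2 and CBS lie to the right in both.

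The difference between the 2 responses was tested directly as the interaction of genotype and drug. The change under the drug was lower in KO than in WT cells, as less of a rise or more of a fall, for 17 of 40 members and higher for 0, against 6.66% and 3.42% of all tested genes. Without the fold limit the counts were 28 and 0, beside 16% and 10.1%. At an unadjusted p under 0.05 they were 29 and 0 by edgeR, beside 38.5% of all genes in either direction, and 27 and 2 by DESeq2. The median interaction was -0.46 for the members and -0.095 for all tested genes. The 6 largest were those of CHAC1, NUPR1, SLC7A11, SLC6A9, ASNS and PCK2. Over all genes the calls were 551 higher and 1073 lower here, 676 and 844 with TMM and 703 and 674 with DESeq2, and the members were at 0 and 14 with either. NUPR1 lost its call in 8 of the 11 fits that each left out 1 library (-1.46 without WT DMSO replicate 1), PYCR1 without WT 5-FU replicate 2 (-0.50) or KO 5-FU replicate 1 (-0.58), and MARS1 without WT DMSO replicate 3 (-0.58) or WT 5-FU replicate 2 (-0.57).

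Without the drug 35 of the 40 members had no call between the genotypes, as had 13854 of all 16123 tested genes, so the called share was near the background. Of the 40 members, 4 were called higher in KO cells, SLC3A2, SLC7A11, CHAC1 and NUPR1, and 1 lower, PHGDH, against 9.1% and 4.97% of all tested genes. Without the fold limit 9 were higher and 17 lower, beside 24.5% and 21.9%, and the libraries did not overlap for 9 that were higher and 19 that were lower, beside 30.1% and 27.4%. The members' median log2 fold change was -0.11 and that of all genes 0.026. PHGDH fell inside the 1.5-fold limit without WT DMSO replicate 2 (-0.55), KO DMSO replicate 1 (-0.58) or replicate 3 (-0.58). SLC6A9 passed it without WT DMSO replicate 3 (0.70) or KO DMSO replicate 1 (0.63). NUPR1, with 1 to 15 counts in the DMSO libraries, lost its call in 7 of the 11 fits that left out 1 library.

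Under 5-FU the list was lower in KO than in WT cells. Here 19 of 40 members were called lower and 1 higher, against 10.6% and 7.58% of all tested genes. Without the fold limit the counts were 30 and 3, beside 28% and 21.6%, and the libraries did not overlap for 32 members that were lower and 3 that were higher, beside 35.1% and 27.9%. The median log2 fold change was -0.57 for the members and -0.046 for all genes. The largest differences were those of PHGDH, CHAC1, ASNS, PCK2, PSAT1 and SLC7A5 among the lower members, and CBS was the 1 called higher. With TMM, total-count or DESeq2 scaling 15 members were called lower and 1 higher. Over all genes the calls were 1222 higher and 1702 lower here, and 1547 and 1367 with total counts. Calls were lost without WT 5-FU replicate 2 for SLC6A9 (-0.50) and MARS1 (-0.56), without WT 5-FU replicate 3 for SLC7A11 (-0.24), TARS1 (-0.53) and GARS1 (-0.55), without KO 5-FU replicate 1 for MARS1 (-0.58) and without replicate 2 of that group for SLC7A11 (-0.58). These comparisons share libraries with the 5-FU responses above, so the values are not separate support for them.

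**Figure D2:**
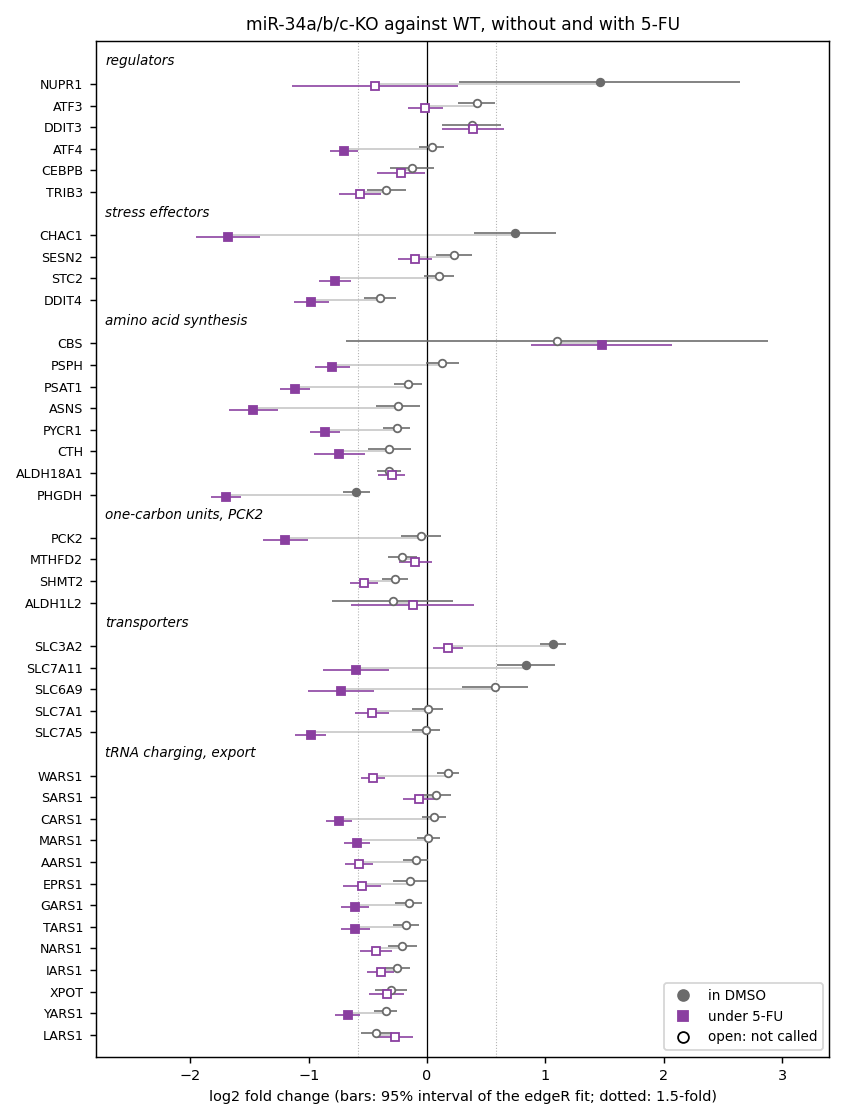
Log2 fold change of KO against WT cells (x axis) for the 40 tested members (y axis), grouped by role, in DMSO (grey circles) and under 5-FU (purple squares), with the 95% interval of the fit as bars, filled symbols for called differences and dotted lines at 1.5-fold. Without the drug 23 of the 40 members lie left of 0, and under 5-FU 37 of 40 do.

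Among the regulators, ATF4 (chr22:39519695-39522683, plus strand, GRCh38) was at 289, 309 and 289 CPM in the WT DMSO and 300.1, 305 and 304 CPM in the KO DMSO libraries. Under 5-FU it was at 363 and 339 CPM in WT and 216, 226 and 207 CPM in KO libraries. The 2 DMSO groups overlapped, while the drug groups lay above and below them. The log2 fold change under 5-FU was 0.25 (SE 0.056, FDR 0.00119) in WT and -0.49 (SE 0.051, FDR 4.67e-07) in KO cells, and the interaction was -0.74 (SE 0.076, FDR 5.02e-06). Between genotypes it was 0.037 (SE 0.051, FDR 0.577) in DMSO and -0.70 (SE 0.056, FDR 5.74e-08) under 5-FU.

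ATF3, a stress-induced repressor and activator that also answers to p53, rose strongly in both genotypes. It was at 14.8, 12.9 and 13.9 CPM in WT DMSO, 73.95 and 74.2 in WT 5-FU, 18.8, 19.7 and 17.2 in KO DMSO and 74.1, 74.8 and 70.9 in KO 5-FU libraries. Each 5-FU library exceeded each DMSO library, and the 5-FU groups overlapped. The log2 fold change was 2.42 (SE 0.074, FDR 1.81e-13) in WT and 1.98 (SE 0.068, FDR 6.58e-13) in KO cells. The genotypes differed in DMSO by 0.42 (SE 0.074, FDR 0.000219) and the interaction was -0.43 (SE 0.10, FDR 0.00513), below the 1.5-fold limit in size. Under the drug they differed by -0.015 (SE 0.069, FDR 0.872), with a 95% interval from -0.16 to 0.13, and the sign turned to 0.026 with TMM, 0.062 with total counts and 0.036 with DESeq2.

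DDIT3, the pro-apoptotic factor CHOP, was at 8.04, 8.11 and 7.52 CPM in WT DMSO, 10.8 and 12.2 in WT 5-FU, 9.77, 9.11 and 11.7 in KO DMSO and 15.8, 16.4 and 12.7 in KO 5-FU libraries. In each genotype the 5-FU libraries lay above the DMSO libraries, by a log2 fold change of 0.54 (SE 0.13, FDR 0.00148) in WT and 0.55 (SE 0.11, FDR 0.000465) in KO cells, under the 1.5-fold limit. The rise in KO cells passed that limit with TMM (0.60), total counts (0.64) and DESeq2 (0.61) and without KO DMSO replicate 3 (0.67) or KO 5-FU replicate 3 (0.66), and the rise in WT cells did without WT 5-FU replicate 2 (0.63). The genotype difference was 0.38 (SE 0.12, FDR 0.0155) in DMSO and 0.39 (SE 0.12, FDR 0.0152) under 5-FU, and the interaction 0.010 (SE 0.17, FDR 0.976) has a 95% interval from -0.35 to 0.37. Leaving out 1 library at a time took the FDR of the genotype difference under 5-FU up to 0.116. Its exons overlap those of MARS1 by 355 bases and those of MBD6 by 58 bases on the opposite strand, the libraries held a mean of 5105 counts for MARS1 and 308 for DDIT3, and the strand setting of the counting is not given in the sources used here, so reads from that stretch may be shared.

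TRIB3, the pseudokinase that inhibits ATF4, was at 39.97, 46.7 and 38 CPM in WT DMSO, 64.2 and 57.05 in WT 5-FU, 32.1, 34.2 and 31.7 in KO DMSO and 39.5, 41.7 and 41.5 in KO 5-FU libraries. It rose in both genotypes, by 0.55 (SE 0.083, FDR 2.76e-05) and 0.33 (SE 0.078, FDR 0.00189), and was lower in KO cells both in DMSO, -0.34 (SE 0.078, FDR 0.00182), and under 5-FU, -0.57 (SE 0.083, FDR 3.58e-05). The interaction was -0.23 (SE 0.11, FDR 0.16). None of these passed the 1.5-fold limit, although the rise in WT cells did with total-count scaling (0.59) and without WT DMSO replicate 2 (0.64) or WT 5-FU replicate 3 (0.64), and the difference under 5-FU did without WT 5-FU replicate 3 (-0.65).

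NUPR1, a small stress-induced chromatin protein, had 1, 5 and 6 counts in WT DMSO, 3, 13 and 15 in KO DMSO, 120 and 69 in WT 5-FU and 45, 56 and 53 in KO 5-FU libraries. Every 5-FU library exceeded every DMSO library, and the log2 fold change was 4.24 (SE 0.46, FDR 6.94e-07) in WT and 2.34 (SE 0.38, FDR 6.02e-05) in KO cells. CEBPB, a dimer partner of ATF4, was at 77.9 ± 5.26 CPM in WT DMSO, 102 ± 20.6 in WT 5-FU, 71.5 ± 2.82 in KO DMSO and 88.01 ± 6.38 in KO 5-FU cells. It rose by 0.40 in WT and 0.30 in KO cells, under the 1.5-fold limit, and its interaction of -0.097 did not pass (FDR 0.619).

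Of the stress effectors, CHAC1, a gamma-glutamyl cyclotransferase that degrades glutathione, had the largest difference between the responses in the list. It was at 2.13, 1.81 and 1.65 CPM in WT DMSO and 19.99 and 18.4 CPM in WT 5-FU libraries. In KO cells it was at 3.298, 2.47 and 3.48 CPM in DMSO and 6.69, 5.64 and 5.63 CPM under 5-FU. No 2 of the 4 groups overlapped. It rose 10.3-fold in WT cells, or 3.37 (SE 0.14, FDR 1.1e-11) in log2, and 1.93-fold in KO cells, 0.95 (SE 0.14, FDR 2.18e-05). The interaction was -2.42 (SE 0.21, FDR 7.82e-07). CHAC1 was higher in KO cells in DMSO, 0.74 (SE 0.16, FDR 0.00137), and lower under 5-FU, -1.68 (SE 0.13, FDR 3.14e-08).

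SESN2, a leucine sensor that restrains mTORC1 and is shared with the p53 response, also rose in both genotypes. It was at 17.3, 17.8 and 18.6 CPM in WT DMSO, 82.4 and 79.4 in WT 5-FU, 19.8, 22.9 and 20.3 in KO DMSO and 74.96, 79.3 and 71.7 in KO 5-FU libraries. The rise was 2.18 (SE 0.073, FDR 5.29e-13) in WT and 1.84 (SE 0.068, FDR 1.45e-12) in KO cells, and the interaction -0.33 (SE 0.100, FDR 0.0219) stayed under the fold limit. DDIT4, an mTORC1 inhibitor, was at 209 ± 20.4 CPM in WT DMSO, 363 ± 24.5 in WT 5-FU, 159 ± 3.65 in KO DMSO and 184 ± 5.897 in KO 5-FU cells. It rose in WT cells by 0.80 (SE 0.071, FDR 7.56e-08), was lower in KO cells under 5-FU at -0.98 (SE 0.071, FDR 1.89e-08), and its interaction of -0.58 (SE 0.096, FDR 0.000429) passed the fold limit when WT DMSO replicate 2 (-0.65) or WT 5-FU replicate 3 (-0.65), among others, was left out. STC2, a secreted glycoprotein, was at 58.3 ± 2.65 CPM in WT DMSO, 88.4 ± 3.08 in WT 5-FU, 62.6 ± 0.631 in KO DMSO and 51.4 ± 3.68 in KO 5-FU cells and rose in WT cells by 0.60 and fell in KO cells with a log2 fold change of -0.28, with an interaction of -0.88 (SE 0.087, FDR 3.41e-06).

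In amino acid synthesis, ASNS, the asparagine synthetase that is often used as the reporter of this response, was at 95.3, 112 and 86.1 CPM in WT DMSO and 144 and 183 CPM in WT 5-FU libraries. In KO cells it was at 83.7, 80.9 and 81.9 CPM in DMSO and 57.98, 62.02 and 57.05 CPM under 5-FU. The drug groups lay above all DMSO libraries in WT cells and below all of them in KO cells. The log2 fold change was 0.75 (SE 0.096, FDR 5.12e-06) in WT and -0.48 (SE 0.091, FDR 0.000267) in KO cells, with an interaction of -1.22 (SE 0.13, FDR 7.94e-06). Under 5-FU ASNS was 2.77-fold lower in KO than in WT cells, or -1.47 (SE 0.098, FDR 6.87e-09) in log2, and in DMSO the difference was -0.25 (SE 0.089, FDR 0.0329).

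The 3 enzymes that make serine from 3-phosphoglycerate, PHGDH, PSAT1 and PSPH, were all higher under 5-FU in WT cells and none rose in KO cells. PHGDH, the first step, was at 138, 151 and 134 CPM in WT DMSO, 194 and 188 in WT 5-FU, 91.01, 97.9 and 90.3 in KO DMSO and 56.4, 59.7 and 60.8 in KO 5-FU libraries, with no overlap between any 2 groups. Its log2 fold change under the drug was 0.44 (SE 0.059, FDR 7.4e-06) in WT and -0.66 (SE 0.056, FDR 4.12e-08) in KO cells, and it was lower in KO cells in DMSO at -0.60 (SE 0.054, FDR 2.13e-07) and under 5-FU by -1.70 (SE 0.060, FDR 8.76e-12). PSAT1, the aminotransferase of the second step, was at 136, 135 and 132 CPM in WT DMSO, 251 and 296 in WT 5-FU, 122, 120.1 and 118 in KO DMSO and 123, 129.6 and 126 in KO 5-FU libraries. It rose 2.04-fold in WT cells, 1.03 (SE 0.059, FDR 3.75e-10), while the change in KO cells was 0.074 (SE 0.055, FDR 0.259). PSPH, the phosphatase that ends the pathway, was at 32.4 ± 0.202 CPM in WT DMSO, 67.4 ± 0.161 in WT 5-FU, 35.3 ± 2.92 in KO DMSO and 38.7 ± 0.881 in KO 5-FU cells and changed by 1.06 (SE 0.070, FDR 1.82e-09) in WT and 0.13 (SE 0.065, FDR 0.0947) in KO cells. The interactions of PHGDH, PSAT1 and PSPH were -1.10, -0.96 and -0.93, all called.

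Not every synthesis gene rose in WT cells. PYCR1, which makes proline, was at 358 ± 7.09 CPM in WT DMSO, 279 ± 27 in WT 5-FU, 299 ± 3.46 in KO DMSO and 153 ± 5.24 in KO 5-FU cells, and fell in both genotypes, with log2 fold changes of -0.36 (SE 0.060, FDR 8.51e-05) and -0.96 (SE 0.055, FDR 2.69e-10). ALDH18A1, which makes the proline precursor, was at 167 ± 7.02 CPM in WT DMSO, 142 ± 0.632 in WT 5-FU, 134 ± 2.16 in KO DMSO and 116 ± 5.01 in KO 5-FU cells, with values of -0.23 and -0.21 and an interaction of 0.023 (FDR 0.842). CTH, the cystathionine gamma-lyase that yields cysteine, was at 11.98 ± 0.385 CPM in WT DMSO, 8.01 ± 0.155 in WT 5-FU, 9.61 ± 0.363 in KO DMSO and 4.77 ± 0.2799 in KO 5-FU cells and fell, at a log2 fold change of -0.58 (SE 0.095, FDR 5.77e-05) in WT and -1.01 (SE 0.094, FDR 1.15e-07) in KO cells. These 3 genes also stood lower in KO than in WT cells without the drug, at log2 fold changes of -0.26, -0.32 and -0.32, all with an FDR under 0.05.

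CBS, the cystathionine beta-synthase upstream of CTH, went the other way from almost nothing. It had 6, 1 and 2 counts in WT DMSO, 8, 7 and 3 in KO DMSO, 206 and 71 in WT 5-FU and 354, 274 and 211 in KO 5-FU libraries. The log2 fold change was 5.16 (SE 0.50, FDR 2.12e-07) in WT and 5.54 (SE 0.39, FDR 3.74e-09) in KO cells, and under 5-FU CBS was the 1 member called higher in KO cells, 1.48 (SE 0.28, FDR 0.000403). That last value was 2.18 without WT 5-FU replicate 2 and 1.04 without WT 5-FU replicate 3. CBS has a near-identical copy in the annotation, CBSL, and reads can be assigned to either. With the counts of both added, chosen after the data were seen, the libraries held 6, 1 and 3 counts in WT DMSO, 18, 20 and 11 in KO DMSO, 207 and 105 in WT 5-FU, and 370, 439 and 374 in KO 5-FU. The summed log2 fold change was 5.21 (SE 0.35, FDR 2.7e-09) in WT and 4.61 (SE 0.23, FDR 4.9e-11) in KO cells, with an interaction of -0.61 (SE 0.55, FDR 0.445). Between the genotypes the summed counts differed by 2.385 on the log2 scale (SE 0.50, FDR 0.00098) in DMSO, past both limits and higher in KO cells, where CBS alone was at 1.10 (SE 0.84, FDR 0.306), and by 1.78 (SE 0.19, FDR 1.39e-06) under 5-FU.

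Among the genes of one-carbon units, the mitochondrial folate enzyme MTHFD2 was at 339 ± 5.59 CPM in WT DMSO, 414 ± 55.3 in WT 5-FU, 293 ± 0.597 in KO DMSO and 387 ± 3.72 in KO 5-FU cells and rose in both genotypes, by 0.29 (SE 0.064, FDR 0.00102) and 0.40 (SE 0.058, FDR 1.8e-05). SHMT2, which moves the one-carbon unit from serine to folate, was at 278 ± 11.5 CPM in WT DMSO, 266 ± 20.2 in WT 5-FU, 230.1 ± 3.44 in KO DMSO and 184 ± 0.855 in KO 5-FU cells and changed by -0.060 (SE 0.057, FDR 0.384) in WT and -0.32 (SE 0.052, FDR 5.15e-05) in KO cells. ALDH1L2, a mitochondrial formyltetrahydrofolate dehydrogenase, was at 2.17 ± 0.319 CPM in WT DMSO, 2.91 ± 1.07 in WT 5-FU, 1.76 ± 0.179 in KO DMSO and 2.63 ± 0.583 in KO 5-FU cells, with 0.41 (FDR 0.163) and 0.58 (FDR 0.044). The spread of ALDH1L2 was wide, and its exons overlap those of WASHC4 by 131 bases on the opposite strand, with a mean of 1466 counts for WASHC4 and 64.6 for ALDH1L2. Opposite-strand exons also overlap those of MTHFD2 (SLC4A5, 1324 bases), CEBPB (CEBPB-AS1, 231 bases) and SHMT2 (NDUFA4L2, 33 bases), and these partners had 0.782%, 0.514% and 0.240% of the counts of the member. In all, 11 members overlap a tested gene in this way or have a copy. PCK2, the mitochondrial enzyme that makes phosphoenolpyruvate from oxaloacetate, was at 30.9, 32.01 and 27.3 CPM in WT DMSO, 35.8 and 39.6 in WT 5-FU, 29.02, 30.4 and 27.4 in KO DMSO and 15.96, 17.9 and 15.4 in KO 5-FU libraries. The DMSO groups overlapped, and PCK2 changed by 0.33 (SE 0.087, FDR 0.00384) in WT and -0.81 (SE 0.084, FDR 4.23e-07) in KO cells, with an interaction of -1.14 (SE 0.12, FDR 6.44e-06). Under 5-FU it was lower in KO cells by -1.20 (SE 0.090, FDR 2.83e-08).

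All 5 transporter genes had a lower response in KO than in WT cells at an FDR under 0.05, beside 16% of all tested genes. Of the 5, 4 were called, beside 6.66% of all tested genes called lower. SLC7A11 and SLC3A2 together encode the cystine-glutamate exchanger, and SLC7A5 pairs with SLC3A2 to import leucine. SLC7A11 was at 22.7, 23.6 and 23.1 CPM in WT DMSO and 43.1, 41.4 and 39.5 CPM in KO DMSO libraries. Under 5-FU it was at 20.9 and 33.2 CPM in WT and 18.02, 17.2 and 18.03 CPM in KO libraries. The 2 WT 5-FU libraries lay on either side of the WT DMSO group, and every KO 5-FU library lay below every other library. SLC7A11 was higher in KO cells in DMSO by 0.84 (SE 0.12, FDR 2.16e-05). It changed under the drug by 0.22 (SE 0.13, FDR 0.159) in WT and -1.22 (SE 0.12, FDR 2.03e-07) in KO cells, with an interaction of -1.44 (SE 0.17, FDR 2.42e-05).

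SLC3A2 was at 193, 203 and 188 CPM in WT DMSO, 402, 421 and 397 in KO DMSO, 285 and 272 in WT 5-FU and 305, 304 and 334 in KO 5-FU libraries. It was 2.09-fold higher in KO than in WT cells in DMSO, 1.06 (SE 0.053, FDR 1.99e-10), with the lowest FDR of the list in that comparison, and differed by 0.17 (SE 0.059, FDR 0.0214) under 5-FU. The drug moved it by 0.52 (SE 0.058, FDR 1.21e-06) in WT and -0.37 (SE 0.053, FDR 1.37e-05) in KO cells. SLC7A5 was at 462, 456 and 470 CPM in WT DMSO, 469, 468 and 440.4 in KO DMSO, 751 and 642 in WT 5-FU and 339, 361 and 357 in KO 5-FU libraries. For SLC7A5 the genotype difference in DMSO was -0.011 (SE 0.057, FDR 0.892), and the change under the drug was 0.59 (SE 0.062, FDR 5.68e-07) in WT and -0.38 (SE 0.057, FDR 2.29e-05) in KO cells. SLC6A9, a glycine transporter whose exons overlap those of CCDC24 by 413 bases, was at 4.76, 4.98 and 6.05 CPM in WT DMSO, 13.5 and 10.1 in WT 5-FU, 7.18, 8 and 8.42 in KO DMSO and 7.603, 6.87 and 7.01 in KO 5-FU libraries. CCDC24, on the opposite strand, had a mean of 586 counts and SLC6A9 one of 221, so reads of that stretch may be shared. The log2 fold change of SLC6A9 was 1.16 (SE 0.14, FDR 1.69e-06) in WT and -0.14 (SE 0.13, FDR 0.365) in KO cells, with an interaction of -1.30 (SE 0.19, FDR 0.000116). SLC7A1, an arginine and lysine transporter, was at 128 ± 8.69 CPM in WT DMSO, 126 ± 5.26 in WT 5-FU, 129 ± 7.24 in KO DMSO and 91.3 ± 5.41 in KO 5-FU cells and fell in KO cells to a log2 fold change of -0.50 (SE 0.062, FDR 3.33e-06), while WT cells were at -0.026 (SE 0.068, FDR 0.764).

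The genes of tRNA charging had median log2 fold changes of 0.22 in WT and -0.19 in KO cells. In WT cells 9 of 13 were higher under 5-FU and 2 lower at an FDR under 0.05, beside 31.9% and 28.3% of all tested genes. In KO cells 1 was higher and 9 lower, beside 26.6% and 33.8%. CARS1, the cysteinyl-tRNA synthetase, led the list and was at 85.2, 85.4 and 80.1 CPM in WT DMSO, 136 and 139 in WT 5-FU, 89.5, 86.3 and 84.4 in KO DMSO and 83.6, 82.9 and 79.3 in KO 5-FU libraries. It rose by 0.72 (SE 0.052, FDR 6.13e-09) in WT cells, changed by -0.081 (SE 0.048, FDR 0.157) in KO cells and had the largest interaction of the 13, -0.80 (SE 0.071, FDR 1.1e-06). SARS1, which charges serine tRNA, was at 155 ± 11.4 CPM in WT DMSO, 250 ± 11.8 in WT 5-FU, 163 ± 7.56 in KO DMSO and 239 ± 3.23 in KO 5-FU cells and was the 1 gene of the 13 that rose in both genotypes, by 0.69 (SE 0.063, FDR 1.01e-07) and 0.55 (SE 0.057, FDR 4.67e-07).

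WARS1, for tryptophan, was at 106 ± 3.31 CPM in WT DMSO, 154 ± 2.83 in WT 5-FU, 119 ± 1.93 in KO DMSO and 112 ± 2.26 in KO 5-FU cells and MARS1, for methionine, at 177 ± 7.47 CPM in WT DMSO, 230.2 ± 7.83 in WT 5-FU, 178 ± 0.7603 in KO DMSO and 152 ± 3.79 in KO 5-FU cells. WARS1 changed by 0.54 in WT and -0.091 in KO cells and MARS1 by 0.38 and -0.23, with called interactions of -0.63 and -0.61. WARS1 and AARS1 overlap opposite-strand exons of WDR25 (287 bases) and DDX19B (43 bases), and YARS1 those of S100PBP (396 bases), and these partners had 5.59%, 13.7% and 19.3% of the counts of the member. GARS1, for glycine, was at 206 ± 12.2 CPM in WT DMSO, 249 ± 15.1 in WT 5-FU, 185 ± 3.25 in KO DMSO and 163 ± 0.786 in KO 5-FU cells. TARS1, for threonine, was at 233 ± 6.11 CPM in WT DMSO, 271 ± 19.8 in WT 5-FU, 205 ± 7.94 in KO DMSO and 178 ± 1.75 in KO 5-FU cells. These 2 were called lower in KO cells under 5-FU, at -0.61 (SE 0.058, FDR 3.7e-07) and -0.61 (SE 0.057, FDR 3.53e-07), as was YARS1, for tyrosine, by -0.67 (SE 0.050, FDR 2.72e-08). YARS1 was at 192 ± 4.94 CPM in WT DMSO, 211 ± 9.702 in WT 5-FU, 151 ± 1.07 in KO DMSO and 132 ± 3.77 in KO 5-FU cells, and AARS1, for alanine, at 264 ± 2.68 CPM in WT DMSO, 293 ± 13.3 in WT 5-FU, 247 ± 12.2 in KO DMSO and 196 ± 5.52 in KO 5-FU cells. The interactions of GARS1, TARS1, AARS1 and YARS1 were -0.45, -0.43, -0.48 and -0.32, each with an FDR under 0.05 and under the fold limit.

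NARS1, for asparagine, was at 290 ± 2.86 CPM in WT DMSO, 342 ± 44.5 in WT 5-FU, 251 ± 1.998 in KO DMSO and 253 ± 3.77 in KO 5-FU cells. EPRS1, for glutamate and proline, was at 357 ± 20.6 CPM in WT DMSO, 375 ± 57.9 in WT 5-FU, 322 ± 7.93 in KO DMSO and 256 ± 4.67 in KO 5-FU cells, and IARS1, for isoleucine, at 388 ± 9.66 CPM in WT DMSO, 375 ± 29.96 in WT 5-FU, 326 ± 2.401 in KO DMSO and 286 ± 2.14 in KO 5-FU cells. In WT cells NARS1 rose by 0.24, while EPRS1 (0.070, FDR 0.44) and IARS1 (-0.049, FDR 0.465) did not pass. LARS1, the leucyl-tRNA synthetase, was at 252, 256 and 239 CPM in WT DMSO, 146 and 178 in WT 5-FU, 184, 186 and 185 in KO DMSO and 130, 136 and 138 in KO 5-FU libraries. It fell in both genotypes, with a log2 fold change of -0.62 (SE 0.070, FDR 1.23e-06) and -0.46 (SE 0.062, FDR 9.1e-06). XPOT, the exportin that carries tRNA out of the nucleus, was at 209 ± 4.92 CPM in WT DMSO, 186 ± 28.7 in WT 5-FU, 169.6 ± 5.49 in KO DMSO and 146 ± 0.494 in KO 5-FU cells, with -0.17 in WT and -0.21 in KO cells.

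The synthetase genes outside the list give a comparison within the same function. Of 11 other cytosolic synthetase and scaffold genes, 0 were called in any comparison. At an FDR under 0.05 by edgeR 5 were lower and 0 higher under 5-FU in WT cells, beside 28.3% and 31.9% of all tested genes. In KO cells 10 were lower and 0 higher, beside 33.8% and 26.6%. The median log2 fold change of the 11 was -0.18 in WT and -0.37 in KO cells, beside 0.22 and -0.19 for the 13 members. The interaction passed for 1 of the 11 and for 8 of the 13, lower in each case, beside 16% of all tested genes. Of 17 mitochondrial synthetase genes, 3 were called lower in each genotype, beside 9.38% of all tested genes in WT and 12% in KO cells. NARS2 (-0.79 in WT and -0.70 in KO cells) and IARS2 (-0.61 and -0.61) were among the lower ones. The medians of the 17 were -0.23 and -0.34. By the interaction 0 of the 17 were called, and 1 was higher and 0 lower at an FDR under 0.05, beside 10.1% and 16%. Between genotypes under 5-FU all 3 sets were mostly lower in KO cells at that FDR. Lower were 12 of the 13 members (median -0.55), 9 of the 11 (-0.28) and 11 of the 17 (-0.25), beside 28% of all genes. Higher were 0, 0 and 2, beside 21.6%.

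**Figure D3:**
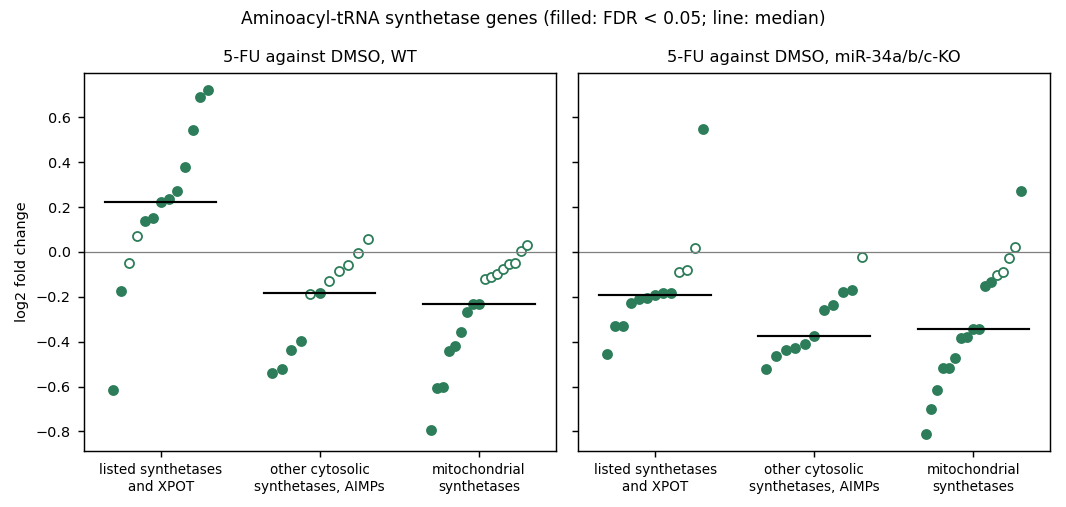
Log2 fold change of 5-FU against DMSO (y axis) for 13 listed tRNA charging genes, 11 other cytosolic synthetase and scaffold genes and 17 mitochondrial synthetase genes (x axis, genes in rising order within each set), in WT cells (left) and KO cells (right), with filled points at an FDR under 0.05 and a line at the median. The listed genes have a median of 0.22 in WT cells, above 0, and -0.19 in KO cells, and both other sets have medians below 0 in each genotype.

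The members with and without the TGATGNAAN core shown above are set side by side without a test. In WT cells 9 of the 11 with it and 17 of the 21 tested members without it were higher at an FDR under 0.05. The share of all tested genes was 31.9%, and the members' median log2 fold changes were 0.38 and 0.54. In KO cells 7 of 11 and 10 of 21 were lower, beside 33.8% of all genes, with medians of -0.20 and -0.14. The interaction was lower for 9 of 11 and 13 of 21, beside 16% of all genes, with medians of -0.48 and -0.43. IARS1, with the same TGATGCAAC letters as CHAC1 and CARS1, did not pass in WT cells.

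Upstream of ATF4, the 20 genes of the eIF2 kinases, eIF2, eIF2B and factors listed with them rarely passed the fold limit. At an FDR under 0.05, 6 were higher and 10 lower under 5-FU in WT cells, beside 31.9% and 28.3% of all tested genes. In KO cells 4 were higher and 6 lower, beside 26.6% and 33.8%. PPP1R15A (GADD34), the phosphatase subunit that reverses eIF2 phosphorylation, was the 1 gene called higher under 5-FU in WT (0.74) and in KO cells (0.77). Of all tested genes 18.5% and 13.3% were called higher there. EIF2A, which encodes a separate factor and not a subunit of eIF2, was called lower in KO cells (-0.65). EIF2AK3 (PERK) was called higher in KO than in WT cells in DMSO (0.77, SE 0.073) and under 5-FU (0.85, SE 0.083), where IMPACT, an inhibitor of GCN2, was also higher (0.69). Between genotypes 9.1% of all tested genes were called higher in DMSO and 7.58% under 5-FU. For the interaction 0 of 20 were called, beside 3.42% higher and 6.66% lower of all tested genes. At an FDR under 0.05, 3 were higher and 1 lower, beside 10.1% and 16%.

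Of 31 further genes linked to ATF4, 27 were tested. Under 5-FU 8 were called higher and 1 lower in WT cells, beside 18.5% and 9.38% of all tested genes. In KO cells 7 were higher and 3 lower, beside 13.3% and 12%. GDF15 (2.72 and 2.30), also a p53 target, and GADD45A (1.67 and 1.47) rose in both. The interaction was called lower for 4, JDP2 (-1.23), ADM2 (-1.05), SLC43A1 (-0.89) and GPT2 (-0.63), and higher for 0, beside 6.66% and 3.42% of all tested genes. At an FDR under 0.05, 9 were lower and 0 higher, beside 16% and 10.1%. Between genotypes 4 were called higher and 2 lower in DMSO, beside 9.1% and 4.97% of all tested genes. Under 5-FU 3 were higher and 5 lower, beside 7.58% and 10.6%, and EIF4EBP1 (-1.29) and NDRG1 (-1.33) were among the lower ones.

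The chaperone genes driven by ATF6 and XBP1, the other arms of the endoplasmic reticulum stress response, are a further comparison. Of 22, 0 were called higher and 6 lower under 5-FU in WT cells and 0 and 11 in KO cells. The shares of all tested genes were 18.5% and 9.38% in WT and 13.3% and 12% in KO cells. HSPA5 (BiP, -0.92 and -0.90) and HSP90B1 (-1.15 and -0.95) were among the lower chaperone genes. In KO cells 12 were called higher than in WT cells in DMSO and 12 under 5-FU, beside 9.1% and 7.58% of all tested genes. DNAJB9 (1.84 and 2.26) and CRELD2 (1.41 and 1.16) were among the higher ones. For the interaction 0 were called, and 4 were higher and 5 lower at an FDR under 0.05, beside 10.1% and 16% of all tested genes. All 20 p53 targets were called higher under 5-FU in each genotype, with medians of 2.27 in WT and 2.0 in KO cells. Between genotypes 10 were called higher in KO cells in DMSO, beside 9.1% of all tested genes. Under 5-FU 4 were higher and 1 lower, beside 7.58% and 10.6%. Of these 20, 4 had an interaction called lower, TP53I3 (-1.27), CDKN1A (-1.24), MDM2 (-0.92) and BAX (-0.62), beside 6.66% of all tested genes. At an FDR under 0.05, 12 were lower and 1 higher, beside 16% and 10.1%. A weaker response in KO cells was therefore not particular to the ATF4 genes.

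Of 16 NRF2 genes, which share SLC7A11 as a target, 2 were called higher and 1 lower in WT and 2 and 2 in KO cells, HMOX1 (1.195 and 1.16) and SLC48A1 (1.24 and 1.64) being the higher ones, 1 was higher in KO cells in DMSO, NQO1 (0.59), and 1 under 5-FU, and 0 were called by the interaction. Of 18 genes of folate, glutamine and proline use with MYC, 1 was called higher and 1 lower in WT and 2 and 4 in KO cells, 0 and 2 between genotypes in DMSO and 1 and 4 under 5-FU, and the interaction was called lower for 1. MYC was lower in KO cells in DMSO (-0.74, SE 0.055) and under 5-FU (-0.98, SE 0.060). Of 16 tested interferon response genes, 7 were called higher and 1 lower in WT and 4 and 1 in KO cells, 0 and 3 between genotypes in DMSO and 0 and 8 under 5-FU, and the interaction was called lower for 4. Of all tested genes, 18.5% were called higher and 9.38% lower under 5-FU in WT cells, and 13.3% and 12% in KO cells. Between genotypes the shares were 9.1% and 4.97% in DMSO and 7.58% and 10.6% under 5-FU, and by the interaction 3.42% and 6.66%. The part of these gene sets, or of markers that move with the drug, in the values of the ATF4 genes was not tested.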

How the data were processed

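The deposited files hold read counts per gene, 1 file per library. According to the study's methods, random-primed cDNA was sequenced in paired ends, and the authors mapped and counted reads in CLC Genomics Workbench against GRCh38 (hg38) with an ENSEMBL annotation. The strand setting is not given in the sources used here. The authors deposited whole-number counts without normalization. Their own test was DESeq2 after RUVg, which removes unwanted variation. The study names no control genes for that step, and after it called genes higher and lower under 5-FU in both genotypes. The main test here was edgeR without RUVg, and DESeq2 and RUVg with 1 factor were separate alternatives. The main design keeps their filter of 20 counts, their upper-quartile scaling and their limits of FDR under 0.05 and more than 1.5-fold.

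The 11 libraries (22831415 to 39064210 counts) were fitted together with edgeR 4.0.16 in R 4.3.3, as 1 mean per group, for genes reaching 20 counts in 1 or more libraries, with upper-quartile factors of 0.955 to 1.05, and tested two-sided with the quasi-likelihood test and Benjamini-Hochberg adjustment over all 16123 genes. The biological coefficient of variation was 6.72%, and counts of low genes such as NUPR1 and CBS limit the precision most. CPM are counts per 1000000 counts of the scaled library, except in the sums of cell type markers, which use the unscaled library. SE were derived from the log2 fold change and the F statistic of the same fit, and intervals from these SE. Simulated data tested the calls of that fit for the genotypes in DMSO, but not the SE or intervals. WT 5-FU replicate 1 was left out as a copy. TMM, total counts, DESeq2 1.42.0, other filters, RUVg, a replicate block and leaving out each library were tried. Named in each comparison were ATF4, DDIT3, ATF3, TRIB3, ASNS and CHAC1 and up to 6 called members per direction, and every member has its level. At most 4 called genes per further list are named. Gene overlaps and UTRs came from GENCODE 44, and near-identical copies from minimap2 2.31 alignments of at least 95% identity. The members and lists were chosen with earlier results of these data known.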

Additional observations from a re-analysis of the deposited data

Results flagged for a closer look

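The 17 members whose response to 5-FU differed between the genotypes by the interaction test, all lower in KO (miR-34a/b/c-KO) cells, are given with the log2 interaction. The largest were CHAC1 at -2.42, NUPR1 at -1.90, SLC7A11 at -1.44, SLC6A9 at -1.30, ASNS at -1.22, PCK2 at -1.14 and PHGDH at -1.10. Between -1 and -0.8 were SLC7A5 at -0.97, PSAT1 at -0.96, PSPH at -0.93, SLC3A2 at -0.89, STC2 at -0.88 and CARS1 at -0.80. The smallest were ATF4 at -0.74, WARS1 at -0.63, MARS1 at -0.61 and PYCR1 at -0.61. NUPR1 rests on 1 to 15 counts in the DMSO libraries. With 2 or 3 libraries per group, single libraries were not tested for standing apart.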

How the results depend on the processing

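The 56 named results were recomputed under each alternative setting where they applied, which gave 1060 values. Of these values, 967 stayed on their side of the limits, 56 became weaker, 10 stronger and 27 reversed. Counts are called higher and lower, in the order genotypes in DMSO, 5-FU in WT, 5-FU in KO, genotypes under 5-FU, interaction. Without the fold limit they were 9 and 17, 29 and 5, 12 and 22, 3 and 30, and 0 and 28. With TMM 2 were lower in WT and 8 higher in KO cells, as with DESeq2 (2 and 8, median interaction -0.38). With total counts 0 were lower in DMSO and 0 in WT, 8 were higher in KO cells, and medians were -0.10 there (-0.0996) and -0.50 between genotypes under 5-FU. ATF3 between genotypes under 5-FU reversed to 0.026, 0.062 and 0.036 with TMM, total counts and DESeq2. With at least 20 counts in every library 0 were lower in DMSO, 3 higher in KO cells and 0 higher between genotypes under 5-FU, and DDIT3 interaction was -0.011. Without members that share reads 0 were higher between genotypes under 5-FU and the median interaction was -0.58.

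RUVg gave 2 higher in DMSO, 0 and 0 in both 5-FU responses (unadjusted p under 0.05 for 12 and 15 members), and medians of 0.056, 0.77, 0.16 and, for the interaction, -0.55 (-0.545). It reversed ATF4 (-0.10 in DMSO, -0.62 in WT), ASNS (0.43 in DMSO, 3.23 in KO), CBS (-6.37 and -4.61), NUPR1 (-1.79 and -2.99), SLC6A9 (-3.77), LARS1 (1.97), SLC7A11 (3.97), PCK2 (0.33) and the DDIT3 interaction (-0.019). Over all genes RUVg called 3 higher and 0 lower under 5-FU in WT and 1 and 0 in KO cells. Its factor lay 98.2% between treatments and so nearly equals the drug term. With WT 5-FU replicate 1 kept, which holds DMSO values, 2 were higher in DMSO and the WT response was at 0 and 0. All tested genes were also at 0 and 0 in WT cells in that setting. Of the members, 23 had an unadjusted p under 0.05 in WT, with a median of 0.27. Calls were 11 lower between genotypes under 5-FU and 7 lower by interaction, and ATF3 reversed to 0.44 and 0.019.

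Leaving out 1 library gave 3 to 5 higher and 0 to 1 lower in DMSO, 13 to 15 and 0 to 2 in WT, 5 to 7 and 5 in KO cells, 1 and 18 to 19 between genotypes under 5-FU, and 0 and 14 to 18 by interaction. Ranges of named values were -0.076 to 0.13 (DDIT3 interaction, reversed in 7 fits) and -0.030 to 0.0076 (ATF3 between genotypes under 5-FU). Same-numbered libraries did not pair (15 pairs, r from -0.091 to 0.078), and with the replicate block the counts were 4 and 1, 13 and 1, 5 and 5, 1 and 19, and 0 and 16, with NUPR1 interaction weaker at -1.60 (FDR 0.07). The causes of shifts not stated were not tested. Low counts limit NUPR1, CBS and ALDH1L2, and 2 WT 5-FU libraries limit every WT response.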
